A study of Homo sapiens with 12 samples.

Results

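The mRNAs described here encode the translation machinery, namely the initiation, elongation and termination factors, the cytoplasmic poly(A)-binding proteins and the aminoacyl-tRNA synthetases, and the data are the sites on these mRNAs that crosslinked to catalytically dead Streptococcus pyogenes Cas9 (dSpCas9). Members were chosen by gene symbol alone. A pattern covering the EIF, EEF, ETF1, GSPT, PABPC and synthetase symbols matched 117 of the 20033 protein-coding genes of GENCODE version 44, and a deposited peak was counted for a member when it overlapped one of its exons on the same strand by at least 1 nt. Over the 4 deposited peak lists, 484 of 18128 peaks met this rule. By role the 117 genes comprised 47 for initiation, 7 for elongation, 3 for termination, 8 for poly(A) binding, 20 cytoplasmic synthetases, 15 mitochondrial synthetases and 17 regulators, modifying enzymes or read-through genes that carry a factor's symbol.

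The study performed eCLIP, in which UV light crosslinks a protein to the RNA it touches before immunoprecipitation (IP) and sequencing, in HEK 293T cells, an immortalised human embryonic kidney line. The cells were transfected with a plasmid for cytoplasmic dSpCas9 carrying a V5 or a 3xFLAG tag, without a guide RNA, or with an empty vector, and were irradiated 2 times at 400 mJ/cm2. For each antibody there were 3 groups of 2 libraries, 12 in all: the IP of tagged dSpCas9, the size-matched input of the same transfected cells, which was not immunoprecipitated, and the IP from empty vector cells. Each list compares one IP with one control (V5 over input, V5 over empty vector, FLAG over input and FLAG over empty vector) and gives 1 log2 enrichment per peak over both replicates, so that no replicate error is known, no test between lists or classes was made, and the read depth behind a peak or a missing peak is unknown. The lists of one antibody share their IP libraries. dSpCas9 was expressed from a plasmid in 1 cell line, and the peaks therefore describe its contacts in that setting.

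Translation starts when initiation factors bring the small ribosomal subunit and the initiator tRNA to the mRNA cap and scan to the start codon. Elongation factor eEF1A then delivers each charged tRNA, its exchange factor eEF1B recharges it with GTP, and eEF2 moves the ribosome along. Release factors end the chain at a stop codon, and the synthetases charge each tRNA with its amino acid, several of them held together in a cytoplasmic multi-synthetase complex. The mRNAs of elongation factors and of some initiation factors are TOP mRNAs, which begin with a pyrimidine tract and are translated according to growth signals, and they are abundant in dividing cells.

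The contact sites that recurred in all 4 lists carry the comparison of the classes, and sequences from each of the 8 genes that held them are shown first, read from the hg38 assembly 5′ to 3′ on the strand of the mRNA. Each CDS stretch is the full run of touching or nearly touching intervals, while sequence reaching into a 3′ UTR is limited to 30 nt. Of the 5 EEF1G stretches in the intersection, the exon 5 stretch and the one at the end of the CDS are printed, because they held its highest values, and those of exons 6 and 9 and the start of exon 10 are not. The 30 nt shown from the end of the CDS lie in an interval of 4.70, 5.50 and 5.39 in V5 over input, V5 over empty vector and FLAG over input. The slightly higher interval beside it (4.77, 5.53 and 5.45) is not shown. Further sites touched by all 4 lists in MARS1 exon 18 and in EIF4H, which had no interval in the intersection, are not printed either. Capitals mark a predicted GU-loop:5nt-stem, that is a GU (GT in DNA letters) with an unpaired U followed by 5 paired bases.
EEF1G, chr11:62570967-62570993, minus strand, CDS, exon 5: tctgcaccctgttgtggctctataagc
EEF1G, chr11:62559670-62559699, minus strand, end of the CDS and start of the 3′ UTR, exon 10: cagggcaagatcttcaagtgaacatctctt
MARS1, chr12:57498214-57498273, plus strand, CDS, exon 8: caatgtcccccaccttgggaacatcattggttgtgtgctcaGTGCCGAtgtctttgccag
MARS1, chr12:57498429-57498450, plus strand, CDS, exon 9: cctccgccagtggaacaccctc
SARS1, chr1:109235278-109235424, plus strand, CDS, exon 7: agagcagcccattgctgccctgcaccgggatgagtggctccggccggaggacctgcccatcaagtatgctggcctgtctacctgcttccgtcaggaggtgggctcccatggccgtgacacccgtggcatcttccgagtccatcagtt
TARS1, chr5:33456158-33456204, plus strand, CDS, exon 8: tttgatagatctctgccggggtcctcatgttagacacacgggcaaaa
GSPT1, chr16:11885181-11885236, minus strand, CDS, exon 10: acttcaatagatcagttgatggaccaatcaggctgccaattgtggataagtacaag
EIF3A, chr10:119034232-119034258, minus strand, 3′ UTR, exon 22: ttGTTCTGGgaGTCAGAAcccaagtgc
EIF4B, chr12:53041264-53041293, plus strand, 3′ UTR, exon 15: tttcttgatgtcttttggttctccttgcct
EIF4H, chr7:74196499-74196528, plus strand, 3′ UTR, exon 7: agttatgtgggaGTGCTAGgggttaggctt
All stretches printed from initiation factor mRNAs were in the 3′ UTR, all those from synthetase mRNAs were in the CDS, and the EEF1G stretches lay inside the CDS and across its end. Capitals appear in EIF3A, with 2 neighbouring predictions, in EIF4H and in MARS1 exon 8.

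Of the 117 genes, 47 (40.2%) had a peak in at least 1 list, against 18.1% of all protein-coding genes, and 70 had none. V5 over input gave a peak on 39 of the 117 (33.3%), where the share among all protein-coding genes was 13.6%. V5 over empty vector gave 29 (24.8%, against 6.79%), FLAG over input gave 27 (23.1%, against 13.2%) and FLAG over empty vector gave 11 (9.4%, against 4.97%). All 4 lists held a peak on 8 of the genes (6.84%), against 2.79% of all genes. These 8 were the initiation factors EIF3A, EIF4B and EIF4H, the elongation factor subunit EEF1G, the release factor GSPT1 and the synthetases MARS1, SARS1 and TARS1. Each of them also had an interval in the stepwise intersection of the lists, in which at least 50% of the first interval must be covered. That set held 2.07% of all genes (414 genes, 749 intervals), and the 8 genes contributed 22 of its intervals (2.94%). The share of genes with a peak was above the background in every list, but genes were counted without regard to how much of each mRNA the cells contained.

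**Figure D1:**
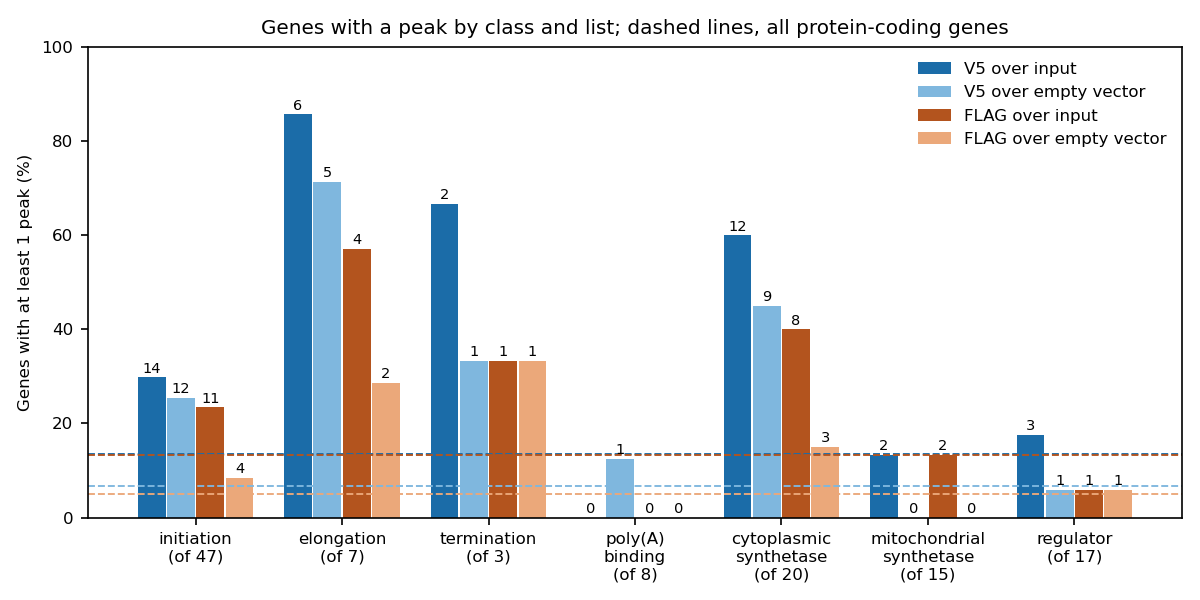
Share of genes with at least 1 peak (y axis, percent) in each class of translation gene (x axis, with the number of genes), 1 bar per list and the number of genes above each bar; dashed lines are the shares among all protein-coding genes. Elongation factors (6, 5, 4 and 2 of 7) and cytoplasmic synthetases (12, 9, 8 and 3 of 20) stood above the dashed line of every list, whereas poly(A)-binding proteins and mitochondrial synthetases lay near or below it, but for the single PABPC4 peak over the empty vector.

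Elongation factors had a peak in at least 1 list for 6 of 7 genes, the exception being EEF1E1, a scaffold of the multi-synthetase complex that is an elongation factor by name only. Cytoplasmic synthetases followed with 13 of 20, and initiation factors had 19 of 47. Of the 15 mitochondrial synthetases 3 had a peak (20%, near the 18.1% of all protein-coding genes), namely TARS2, IARS2 and LARS2, and none of these was found over an empty vector. Among poly(A)-binding genes PABPC4 alone of 8 had a peak, with a log2 enrichment of 3.32 in V5 over empty vector, and PABPC1, the major cytoplasmic form, had none. Of the 17 regulators, EIF4EBP1 and EIF4EBP2, which hold back the cap-binding protein eIF4E, and the kinase EIF2AK1 had peaks.

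The complexes are given as counts, to be read against the 18.1% found for all protein-coding genes. Of the 14 genes of eIF3, the scaffold that joins the small subunit to the mRNA, 8 had a peak (EIF3A, EIF3B, EIF3D, EIF3F, EIF3G, EIF3I, EIF3L and EIF3M). None of the 4 genes of eIF2, which carries the initiator tRNA, and none of the 5 genes of eIF2B, its exchange factor, had a peak in any list, counts too small to be set apart from that share. Of the 5 eIF4F genes, 2 had one: the helicase EIF4A1, with 1 peak over the empty vector for V5, and the scaffold EIF4G1, with 1 peak over input for V5. All 5 genes of eEF1 had a peak in V5 over input, where the share of all protein-coding genes was 13.6%. In V5 over empty vector, FLAG over input and FLAG over empty vector it was 4, 3 and 2 of the 5, against 6.79%, 13.2% and 4.97%. Of the 9 genes listed for the multi-synthetase complex, which include the scaffold EEF1E1, 5 had a peak, as did 8 of the 12 cytoplasmic synthetases outside it, and of the 10 mRNAs on the TOP list 7 did, the others being EIF3E, EIF3H and PABPC1.

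**Figure D2:**
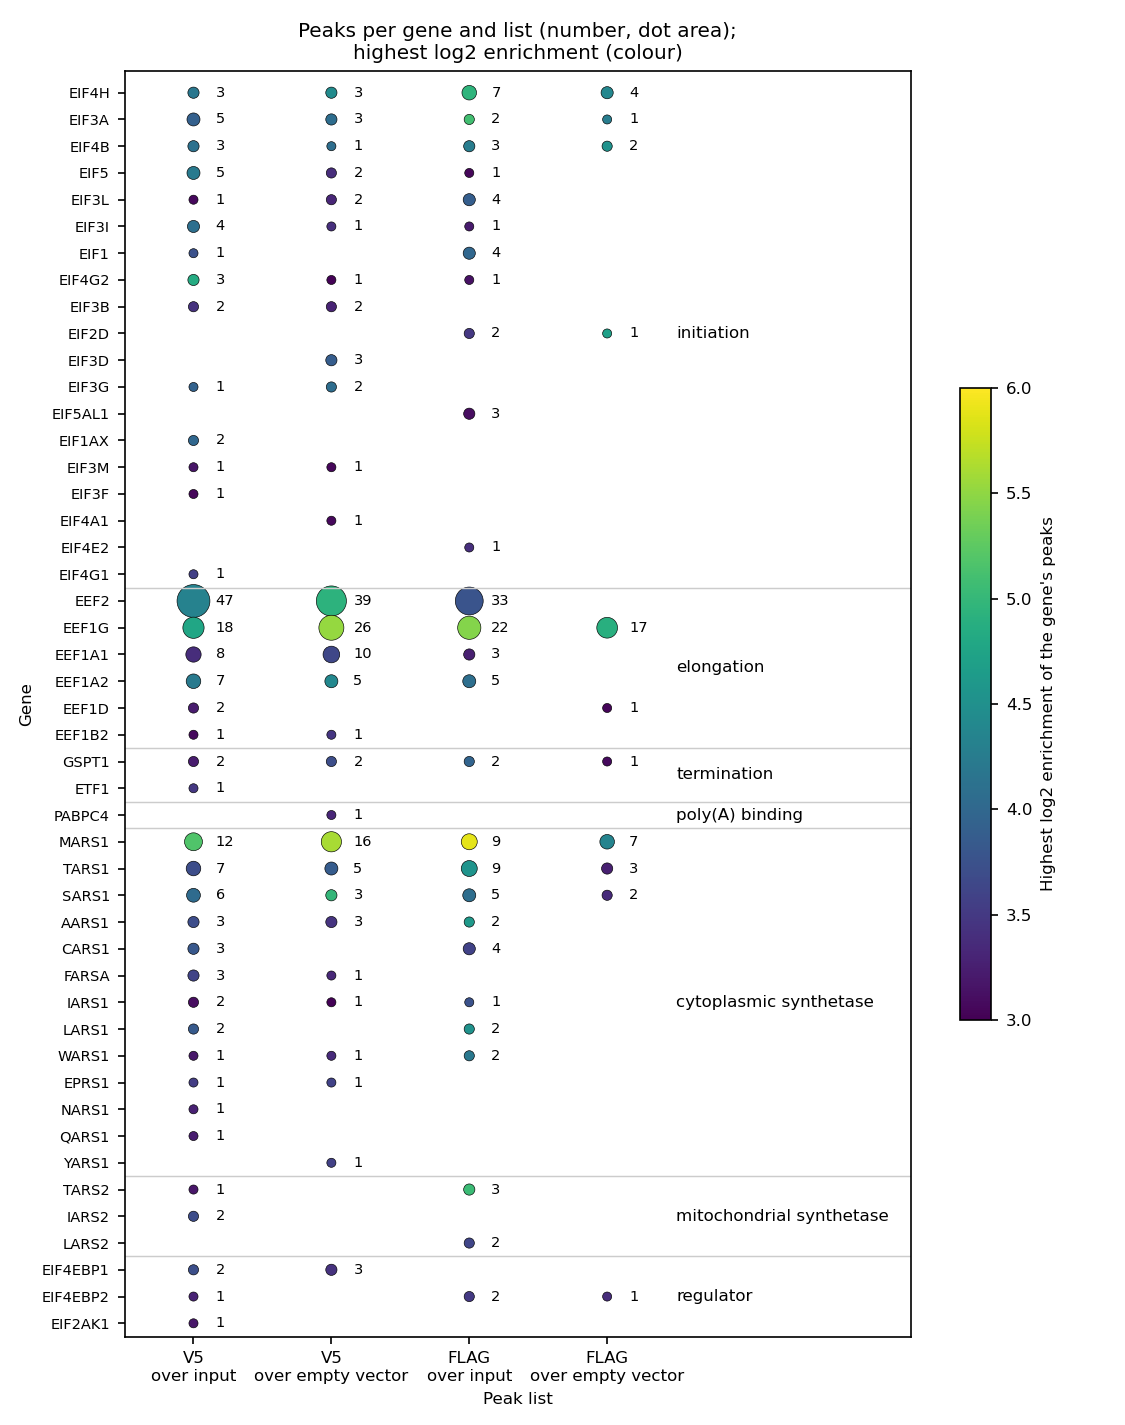
The 47 genes with a peak (y axis, grouped by class) in each of the 4 lists (x axis); dot area and the number beside it give the number of peaks, and colour gives the highest log2 enrichment among them. EEF2 has the most peaks but no dot in FLAG over empty vector, while EEF1G, MARS1, TARS1, SARS1, EIF4H, EIF4B, EIF3A and GSPT1 have a dot in every column.

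A few mRNAs held most of the peaks. EEF2, with 119 peaks, made up 48.6% of the 245 elongation factor peaks, followed by EEF1G with 83, EEF1A1 with 21 and EEF1A2 with 17. MARS1, with 44 of 120, led the cytoplasmic synthetases, before TARS1 with 24 and SARS1 with 16. EIF4H, with 17 of 92, led the initiation factors, before EIF3A with 11 and EIF4B with 9. The peaks on elongation factor mRNAs were short, with a median of 23 nt in V5 over input against 75 nt for all peaks on protein-coding exons, and many of them touched. The numbers of peaks therefore count segments, and the 484 peaks of the 4 lists joined into 165 sites when touching or overlapping peaks were combined over all lists. Peaks were joined on genome coordinates, so a stretch of mRNA split by an intron counts as separate sites. This was so for MARS1 exons 8 and 9 and for parts of EEF1A1 and EEF1A2, and the site counts are therefore higher than those along the spliced mRNA.

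Of the 165 sites, 14 were in all 4 lists, 31 in 3, 34 in 2 and 86 in 1. Sites were not counted over all protein-coding genes, so whether these overlaps differ from those of other mRNAs was not tested. Sites in all 4 lists numbered 4 of 45 for initiation factors, 4 of 49 for elongation factors and 5 of 51 for cytoplasmic synthetases, with the remaining one in GSPT1. Sites in 3 lists were most frequent in the elongation class (19 of 49), where 13 sites were in a single list, compared with 28 of the 45 initiation sites. Most of these 19 sites lay on EEF2, which had no peak in FLAG over empty vector and could thus reach 3 lists at most. An empty vector list but no input list held 28 of the 165 sites. FLAG over empty vector, the shortest list, held 19 of them, and V5 over input 112.

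EEF1G encodes the gamma subunit of the eEF1B exchange complex. It had 18 peaks in V5 over input, 26 in V5 over empty vector, 22 in FLAG over input and 17 in FLAG over empty vector, which covered 35.8%, 45.3%, 34.1% and 22.3% of its 1446-nt mRNA. Its highest log2 enrichments were 4.77, 5.53, 5.45 and 4.89 in the same order, which correspond to 27.3-fold, 46.2-fold, 43.7-fold and 29.7-fold over the control. Its peaks formed 3 blocks along the mRNA. The first, in exons 2 to 4, held 2, 10, 1 and 0 peaks in the lists in the same order, so that most of its segments were in V5 over empty vector. Its exon 2 site (chr11:62572614-62572727) was nevertheless in V5 over input, V5 over empty vector and FLAG over input, at 4.15, 3.70 and 3.32. The second lay in exons 5 to 7, where the exon 5 site (chr11:62570965-62570997, hg38, minus strand) reached 4.71, 4.68, 4.77 and 4.89, nearly the same value against both controls and with both tags. The last lay in exons 9 and 10, where the site at the end of the CDS (chr11:62559642-62559837) reached 4.77, 5.53, 5.45 and 4.47. Of the 22 intervals in the intersection, 10 were in EEF1G, 9 of them with their midpoint in the CDS. All 83 EEF1G peaks also lay on exons of ENSG00000255508, a read-through gene that shares them, and the reads of the 2 genes cannot be told apart.

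EEF2 encodes the translocase eEF2. It had 47, 39 and 33 peaks in V5 over input, V5 over empty vector and FLAG over input, covering 35.4%, 31.9% and 26.0% of the mRNA, and none in FLAG over empty vector. Its highest log2 enrichments were 4.32, 4.93 and 3.77. All 119 peaks were in the CDS, from exon 3 to the last, exon 15, and in both V5 lists the highest values fell in exon 4 (chr19:3982822-3983018, minus strand). Among the translation genes, EEF2 was thus one of the most covered mRNAs in 3 lists and absent from the fourth. The −log10 p-value of 44 of its 47 peaks in V5 over input was at 400, the upper limit of the column, and therefore cannot rank them.

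EEF1A1 and EEF1A2 encode the ubiquitous and the neuron- and muscle-type form of eEF1A. Both had peaks in the same 3 lists as EEF2 and none in FLAG over empty vector. EEF1A1 had 8, 10 and 3 peaks with highest log2 enrichments of 3.38, 3.64 and 3.27, and EEF1A2 had 7, 5 and 5 with 4.23, 4.41 and 4.08. EEF1A2 was higher in each of the 3 lists, by 0.77 to 0.85 on the log2 scale. The coding sequences of the pair were 78.1% identical, and within the sites the longest run shared by both mRNAs was 20 nt. How reads that match both mRNAs were placed was not stated, and the split between the 2 genes is uncertain. EEF1B2 and EEF1D, the other exchange factor subunits, had 2 and 3 peaks with no log2 value above 3.46.

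**Figure D3:**
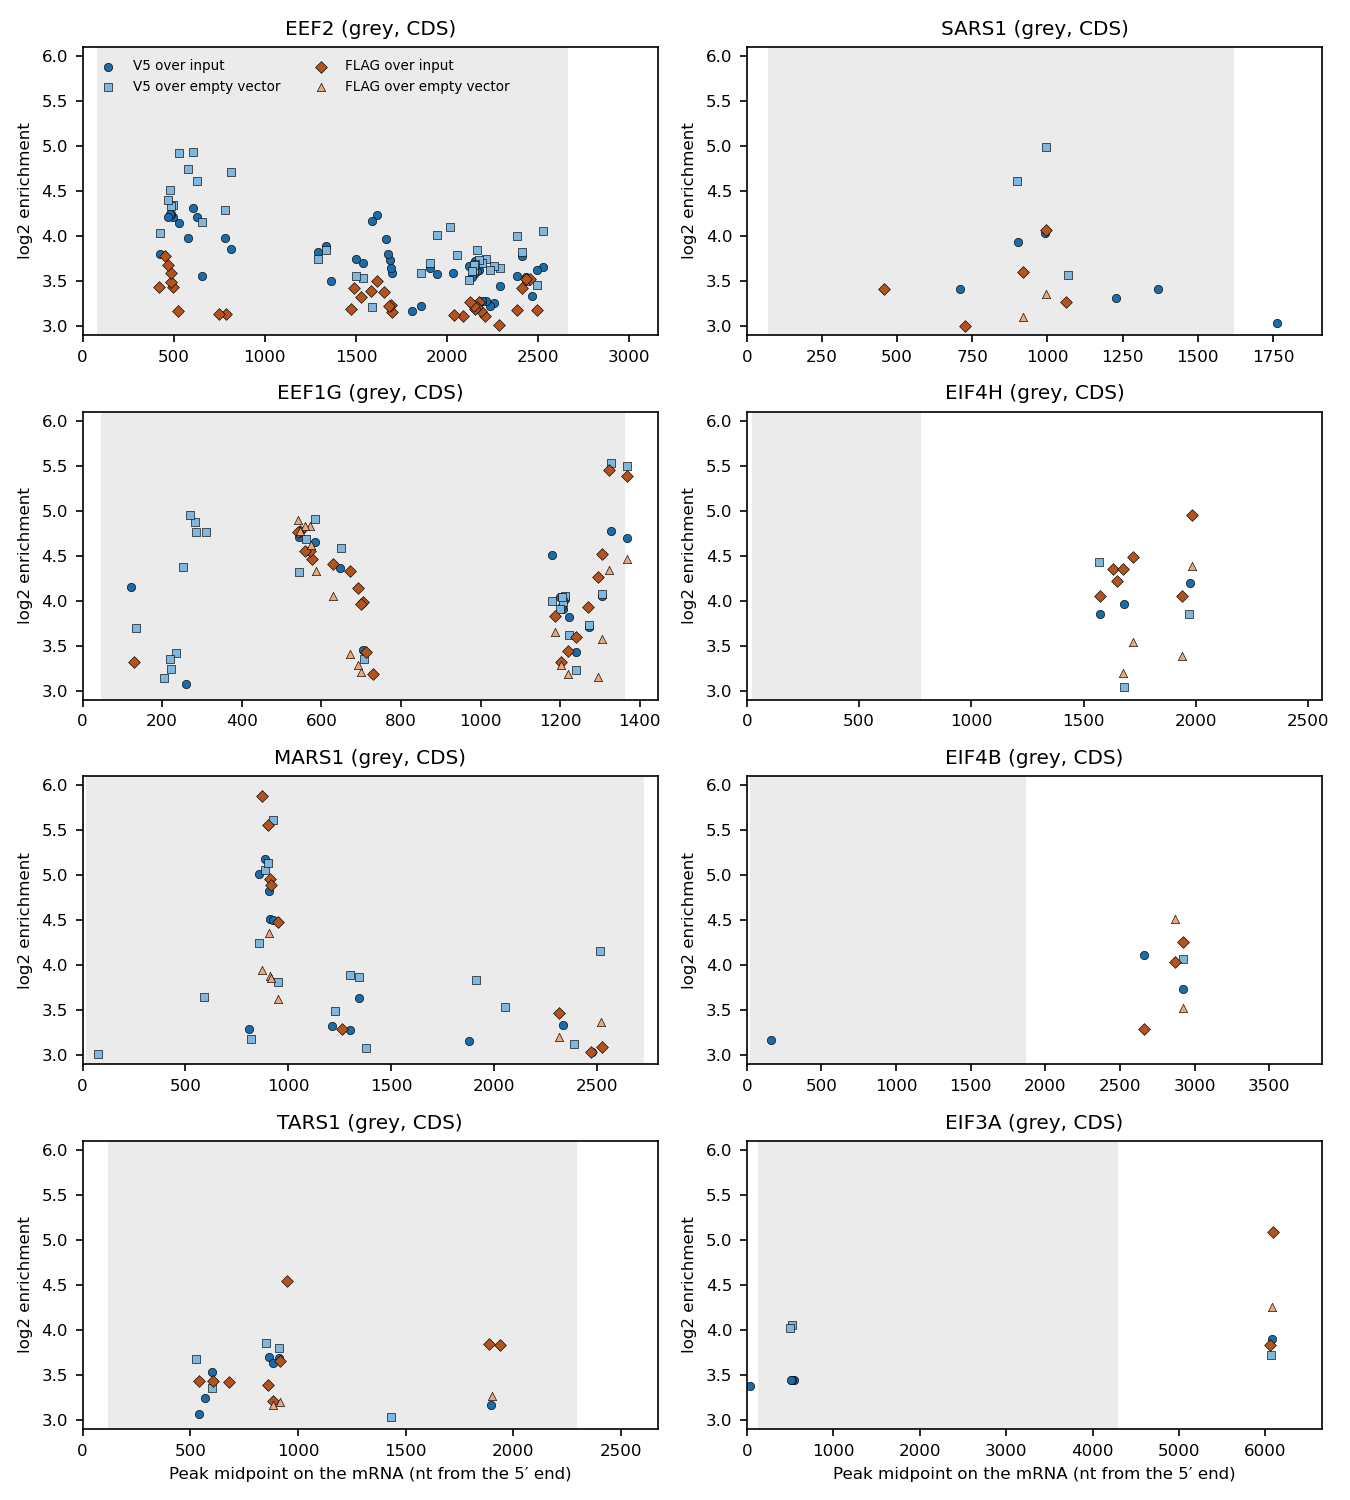
Midpoint of each peak on the mRNA (x axis, nt from the 5′ end) and its log2 enrichment (y axis) for 8 mRNAs, with the CDS shaded grey and 1 marker type per list. EEF2, MARS1 and TARS1 have all their peaks in the CDS, EEF1G all but 4 and SARS1 all but 1, the highest MARS1 values being gathered near 900 nt, while the peaks of EIF4H and nearly all of those of EIF4B lie far into the 3′ UTR.

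MARS1 encodes methionyl-tRNA synthetase, a member of the multi-synthetase complex that charges initiator and elongator tRNA alike. It had 12, 16, 9 and 7 peaks in V5 over input, V5 over empty vector, FLAG over input and FLAG over empty vector, with highest log2 enrichments of 5.18, 5.61, 5.88 and 4.36. These were the highest values of any translation gene in V5 over input, V5 over empty vector and FLAG over input. The strongest peaks sat on both sides of the junction of exons 8 and 9 (chr12:57498158-57498274 and chr12:57498419-57498485, plus strand), which are joined in the mature mRNA. The exon 8 side reached 5.18, 5.14, 5.88 and 4.36, and the exon 9 side 4.52, 5.61, 4.96 and 3.89. A further site in exon 18 was in all 4 lists at 3.34, 3.13, 3.47 and 3.21. The other MARS1 sites were in 1 to 3 lists, and all 44 peaks were in the CDS.

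TARS1, threonyl-tRNA synthetase, had 7, 5, 9 and 3 peaks, all in the CDS, with highest log2 enrichments of 3.70, 3.86, 4.55 and 3.27. Its exon 8 site (chr5:33456148-33456226, plus strand) was in all 4 lists at 3.69, 3.80, 4.55 and 3.20. SARS1, seryl-tRNA synthetase, had 6, 3, 5 and 2 peaks with highest values of 4.04, 4.99, 4.07 and 3.36, each of them at the exon 7 site (chr1:109235233-109235426, plus strand). AARS1, alanyl-tRNA synthetase, reached 4.62 in FLAG over input at a 5′ UTR site that was also in both V5 lists at 3.40 and 3.46. LARS1, leucyl-tRNA synthetase, had its only site in the 5′ UTR, at 3.84 in V5 over input and 4.53 in FLAG over input, and no peak over an empty vector. The highest values thus lay at the exon 7 site in every list for SARS1, and beside the junction of exons 8 and 9 for MARS1. In TARS1 the highest site differed by list: exon 7 in both V5 lists, exon 8 in FLAG over input and exon 16 in FLAG over empty vector. AARS1 and LARS1 had a 5′ UTR site, and AARS1 also had sites in the CDS and 3′ UTR. By contrast, WARS1 had all of its 4 peaks in the 3′ UTR, reaching 4.20 in FLAG over input. Among mitochondrial synthetases, TARS2 had 1 peak in V5 over input (3.18) and 3 in FLAG over input (up to 5.05), IARS2 had 2 in V5 over input (up to 3.70) and LARS2 had 2 in FLAG over input (up to 3.61).

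Among initiation factors, EIF4H, a cofactor of the helicase eIF4A, had 3, 3, 7 and 4 peaks, with highest log2 enrichments of 4.20, 4.43, 4.95 and 4.39. All 17 were in the 3′ UTR of exon 7, at 3 sites with midpoints from 1569 to 1981 nt of the mRNA. The most distal site (chr7:74196457-74196551, plus strand), which includes the printed stretch, was in all 4 lists at 4.20, 3.86, 4.95 and 4.39. EIF4B, another eIF4A cofactor and a TOP mRNA, had 3, 1, 3 and 2 peaks, 8 of 9 in the 3′ UTR, with highest values of 4.11, 4.07, 4.26 and 4.52. EIF3A, the largest eIF3 subunit, had 5, 3, 2 and 1 peaks with highest values of 3.90, 4.06, 5.09 and 4.26. Its 3′ UTR site (chr10:119034212-119034292, minus strand) was the only one found with FLAG, and the 2 CDS sites in exons 3 and 4 were in both V5 lists alone. The 2 eIF4A cofactors and EIF3A therefore had their recurrent contacts in the 3′ UTR, far from the start codon.

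GSPT1 encodes the release factor eRF3a. It had 2, 2, 2 and 1 peaks, with highest log2 enrichments of 3.23, 3.71, 3.95 and 3.07, all in the CDS at neighbouring ends of exons 10 and 11. As in MARS1, the peaks lay at an exon junction, and the exon 10 site (chr16:11885180-11885260, minus strand) was in all 4 lists. ETF1, the release factor eRF1 that reads the stop codon, had 1 peak of 3.49 in the 3′ UTR in V5 over input.

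The region in which peaks lay was compared between the classes. Over the 4 lists, 241 of 245 elongation factor peaks (98.4%, 95% Wilson interval 95.9 to 99.4%) had their midpoint in the CDS, 4 in the 3′ UTR and none in the 5′ UTR. Of the 120 cytoplasmic synthetase peaks, 86.7% (79.4 to 91.6%) were in the CDS, 5.83% (2.85 to 11.6%) in the 3′ UTR and 7.5% (4 to 13.6%) in the 5′ UTR. Of the 92 initiation factor peaks, 44.6% (34.8 to 54.7%) were in the CDS, 43.5% (33.8 to 53.7%) in the 3′ UTR and 10.9% (6.01 to 18.9%) in the 5′ UTR. These intervals cover counting error only, and peaks of one mRNA are not independent. A site found in several lists, or split into touching segments, was counted more than once in these pooled shares. With touching peaks of each list merged, 50% of the initiation factor peaks were in the CDS and 37.8% in the 3′ UTR. Among all peaks on protein-coding exons the CDS share ranged from 48.2% in FLAG over empty vector to 62% in V5 over empty vector, and the 3′ UTR share from 28% in V5 over empty vector to 47.1% in FLAG over empty vector, a range that includes the initiation factor value. The initiation factor shares also varied by list. The 3′ UTR held 39.4% of 33 peaks in V5 over input, 22.7% of 22 in V5 over empty vector, 51.7% of 29 in FLAG over input and 87.5% of 8 in FLAG over empty vector, and the CDS held 45.5%, 63.6%, 37.9% and 12.5%. The CDS share of cytoplasmic synthetase peaks ran from 82.4% in FLAG over input to 100% in FLAG over empty vector.

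Part of this difference was present in the lengths of the regions themselves. Weighted by the number of peaks per gene, the CDS made up 49.2% of the initiation factor mRNAs, 80.9% of the elongation factor mRNAs and 86.6% of the cytoplasmic synthetase mRNAs. The CDS share of peaks was thus close to the CDS share of length for synthetases (86.7% against 86.6%) and for initiation factors (44.6% against 49.2%), and above it for elongation factors (98.4% against 80.9%). The 5′ UTR held more peaks than its length share in initiation factors (10.9% against 3.18%) and in cytoplasmic synthetases (7.5% against 2.57%), and none in elongation factors (3.09% of length). Among all peaks on protein-coding exons the 5′ UTR share was 9.03%, 9.15%, 7.89% and 3.43% in V5 over input, V5 over empty vector, FLAG over input and FLAG over empty vector, so that the initiation factor and synthetase shares were near those of other mRNAs. The 5′ UTR peaks came from EIF1, EIF3A, EIF3M and EIF5 in the first class and from AARS1, EPRS1 and LARS1 in the second.

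**Figure D4:**
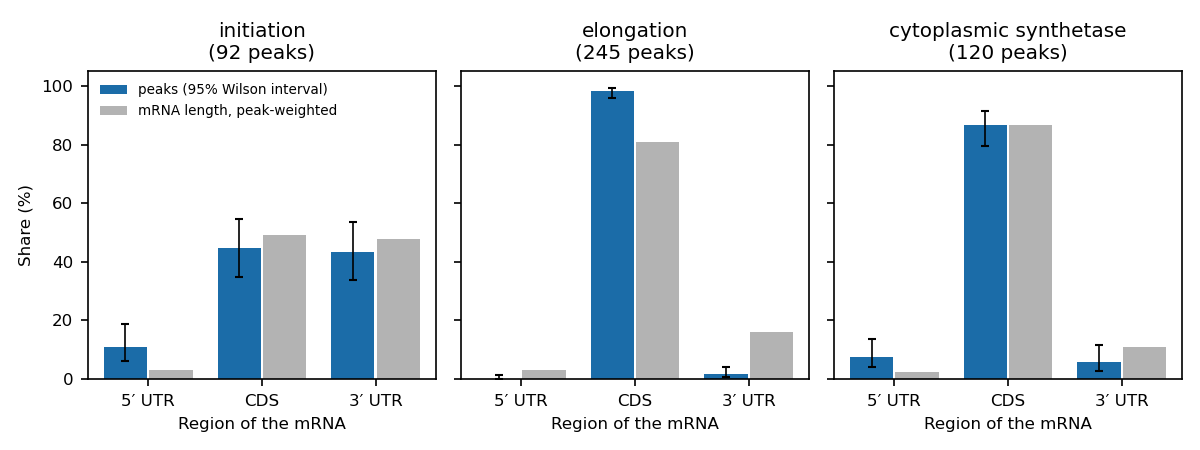
Share of peaks over the 4 lists in each mRNA region (blue, with 95% Wilson intervals) beside the share of mRNA length in that region (grey, each gene weighted by its peaks) for 3 classes; both axes give percent against region. Elongation factor peaks exceed the CDS share of length (98.4% against 80.9%). Synthetase peaks are close to it with this weighting (86.7% against 86.6%), where MARS1 holds 44 of the 120 peaks. Initiation factor peaks divide between CDS (44.6%) and 3′ UTR (43.5%) when pooled, with 3′ UTR shares of 22.7% to 87.5% in single lists.

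Single genes weighed on these shares. Without EIF4H the 3′ UTR held 30.7% (21.4 to 41.8%) of the initiation factor peaks, and with each of the 19 genes weighted alike it held 31.6%. Without MARS1 the CDS held 78.9% (68.5 to 86.6%) of the cytoplasmic synthetase peaks. With each of the 13 synthetase genes weighted alike, the CDS held 73.6% of peaks against 80.2% of length. The 5′ UTR then held 15.4% of peaks against 2.94% of length. Without EEF2 the CDS held 96.8% (92.1 to 98.8%) of the elongation factor peaks. The strongest initiation factor peaks, those with a log2 enrichment of at least 4, were in the 3′ UTR in 17 of 24 cases (70.8%, 50.8 to 85.1%), of which 10 were in EIF4H, 5 in EIF4B and 2 in EIF3A. Below 4 it was 23 of 68 (33.8%, 23.7 to 45.7%). The 17 peaks included entries of the same sites in several lists. Peaks of at least 4 were not counted by region over all protein-coding genes. Whether these shares differ from those of other mRNAs was therefore not tested. Among cytoplasmic synthetases 21 of the 26 peaks of at least 4 were in the CDS, 16 of them in MARS1.

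Enrichment of the peaks on translation genes resembled that of other mRNAs. In V5 over input the median log2 enrichment was 3.61 for the 168 peaks on these genes and 3.60 for all 6431 peaks on protein-coding exons. In V5 over empty vector it was 3.68 against 3.62, in FLAG over input 3.50 against 3.61, and in FLAG over empty vector 3.56 against 3.59. Among initiation factors, elongation factors and cytoplasmic synthetases, the classes with the most peaks, the medians ran from 3.37 (initiation, V5 over empty vector, 22 peaks; cytoplasmic synthetases, FLAG over empty vector, 12 peaks) to 3.90 (initiation, FLAG over empty vector, 8 peaks), with standard deviations among peaks of 0.40 to 0.72. All lists begin at a log2 of 3, which bounds these medians from below. The weakest peak on a translation gene, just inside this limit, was 3.02 on IARS1 in V5 over input, 3.01 on EEF1A1 in V5 over empty vector, 3.00 on SARS1 in FLAG over input and 3.04 on EEF1D in FLAG over empty vector, and values below it were not used here.

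The 2 tags gave different enrichments for single genes. Of the 23 genes with a peak over input for both tags, the highest log2 enrichment was higher with FLAG for 16 and with V5 for 7, with a median difference, FLAG minus V5, of 0.66. The difference ran from −1.70 for EIF4G2, an initiation factor that works without the cap-binding protein, to 1.87 for TARS2. A further 16 genes had a peak over input with V5 alone and 4 with FLAG alone. Among all protein-coding genes, 2717 had a peak over input with V5 and 2639 with FLAG. How many of these were found with a single tag, or were higher with FLAG, was not counted. The tags were in separate transfections and were immunoprecipitated with different antibodies, whose effects cannot be told apart here.

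The predicted GU-loop:5nt-stem, defined above, was found within 2 of the 22 intervals of the intersection (9.09%, 2.53 to 27.8%), those of EIF3A and EIF4H, against 274 of all 749 (36.6%). The intervals on translation genes were short, with a median of 20.5 nt against 58 nt. The MARS1 prediction appeared only when nearly touching intervals were joined, and it spans the gap between them. Among peaks of 40 to 80 nt in V5 over input, 42.3% (22 of 52, 29.9 to 55.8%) of those on translation genes and 38.4% of the 2249 on all protein-coding exons held one, and in FLAG over input it was 41.5% (17 of 41, 27.8 to 56.6%) and 36.4%. At like length the shares therefore overlapped within counting error. Most elongation factor peaks were shorter than this window, with medians of 23 nt in V5 over input and 21 nt in FLAG over input. The comparison therefore does not cover them. Over all lengths, 36.4% of initiation, 7.23% of elongation and 42.9% of cytoplasmic synthetase peaks in V5 over input held a prediction. In FLAG over input the shares were 41.4%, 4.76% and 29.4%. The median GC content in V5 over input was 58% for peaks on translation genes and 60.6% for all.

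Some members share sequence with another gene. EIF5AL1, an intronless copy of the gene for eIF5A, had 3 peaks in FLAG over input, all at 3.10, on a stretch of 68 nt of which 67 matched the EIF5A mRNA, while EIF5A itself had no peak. The assignment to EIF5AL1 is therefore uncertain. Without it the 3′ UTR held 37 of 89 initiation factor peaks over the 4 lists (41.6%). Of the peaks on EIF5, the GTPase-activating protein of eIF2, 5 also lay on exons of ENSG00000291313, and the EIF4A1 peak lay on the read-through gene SENP3-EIF4A1 as well. No peak overlapped a small RNA gene within these mRNAs. A peak that contained an exon end made up 33.1% of the CDS peaks on translation genes in V5 over input, against 36% for all genes.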

How the data were processed

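eCLIP was performed on 12 libraries of HEK 293T cells, 2 per group, and 4 peak lists were deposited. Per the methods and processing notes of the submitters, reads were trimmed with cutadapt 1.14, aligned to hg38 with STAR 2.4.0i and deduplicated with UMI-tools 1.0.0, with SAMtools 1.6 also named, and peaks were called per replicate, compared with a control and merged over replicates by irreproducible discovery rate. The authors kept peaks by a minimum geometric mean ratio of IP to control reads, deposited as its log2, and by p-value, deposited as −log10 p with an upper limit of 400. How the ratio was scaled to library depth is not given in the sources used here. The lists hold no read counts, so that depth is unknown and a replicate error cannot be computed.

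Peaks were assigned to exons of GENCODE version 44 (hg38, Ensembl 110) on the same strand with bedtools 2.31.1, and to a region by their midpoint on the canonical transcript, where the stop codon counts with the 3′ UTR. The intersection joined the V5 lists, the FLAG lists and then both, with at least 50% of the first interval covered. The GU-loop:5nt-stem was predicted with ViennaRNA 2.7.2 (window and span of 70 nt, flanks of 50 nt, pairing of U below 0.7 and of each of 5 following bases above 0.5). Python 3.11.15, pandas 2.3.3 and scipy 1.17.1 were used, and assignment and intersection were tested on simulated data. Intervals are 95% Wilson intervals.

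Genes, classes and lists were chosen with earlier results of these data known. Named genes were those in all 4 lists or the intersection, the 3 with the most peaks and the 3 with the highest mean of both maxima over input in each of the initiation, elongation, cytoplasmic and mitochondrial synthetase classes, and termination and poly(A)-binding genes with a peak. Complexes and the TOP list were given as counts. EIF4G2, EIF5AL1, EIF5, WARS1, regulators and the genes listed under a count were named after their values were seen. Alternatives were stricter thresholds, other overlap rules, canonical exons, merged peaks, input lists alone and omission of regulators.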

Additional observations from a re-analysis of the deposited data

How the results depend on the processing

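No paired analysis was possible because the lists hold 1 value per peak over both replicates, and no replicate was left out for the same reason. Of 206 recomputed values, 161 stayed within 1.5 times for a count, the Wilson interval for a share or 1 SD among peaks for a median. None moved with canonical exons, with at least 50% of the peak on the exon, with 50% reciprocal overlap or without regulators.

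Keeping log2 values of at least 4 left 10, 9, 12 and 6 genes and 34, 43, 37 and 14 peaks in V5 over input, V5 over empty vector, FLAG over input and FLAG over empty vector, and 6 intervals in 2 genes (EEF1G and MARS1). The medians then rose, as fewer low peaks remained, to 4.20, 4.23 and 4.67 (V5 over input), 4.07, 4.41 and 4.99 (V5 over empty vector) and 4.31, 4.52 and 4.54 (FLAG over input) for initiation, elongation and cytoplasmic synthetases, and to 4.62 and 4.36 for the last pair in FLAG over empty vector. Initiation peaks then divided into 4.17% 5′ UTR, 25% CDS and 70.8% 3′ UTR, and elongation peaks into 94.7% CDS and 5.26% 3′ UTR.

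Keeping −log10 p of at least 10 left 22, 10 and 6 genes in V5 over input, V5 over empty vector and FLAG over empty vector, 84 peaks in V5 over empty vector and 4 genes in the intersection (EEF1G, EIF4H, MARS1 and SARS1). Medians in V5 over empty vector were then 3.86 (initiation) and 5.02 (cytoplasmic synthetases), and the synthetase 3′ UTR share was 1.79%.

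Merging touching peaks left 85 peaks in FLAG over input, 23 in FLAG over empty vector and 12 intervals, and put 100% of elongation peaks in the CDS and 0% in the 3′ UTR. Counting every region touched also gave 100% for that CDS. Overlap of 1 nt gave 43 intervals, and the input lists alone gave 83 intervals in 18 genes. Leaving out the gene with the most peaks, chosen after seeing the data, gave 30.7% for the initiation 3′ UTR and 78.9% for the synthetase CDS.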
